A study of Homo sapiens with 4 samples.

Results

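Genes of glucose transport, glycolysis, the pentose phosphate pathway and the hypoxia response were followed in A549, an established line from a human lung adenocarcinoma, with and without a knockdown of NUPR1. The set holds 48 genes chosen by name, and all 48 had a row among the 19402 rows of the deposited count table. The knockdown group is labelled as a knockdown of p8, another name of NUPR1, a small stress-induced chromatin protein, and the other group is labelled only as control. The sources used here do not give the agent of the knockdown, the treatment of the control cells or the oxygen level of the cultures, and 1 cell line stands for all. Each group had 2 libraries of polyadenylated RNA, 1 single-end and 1 paired-end, but the table holds 1 column per group. No value therefore has a replicate, no test was possible, and each difference below is one between these 2 columns. The comparison set the glycolytic enzymes beside the other targets of hypoxia-inducible factor (HIF).

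Glycolysis turns glucose into pyruvate in the cytosol, and lactate dehydrogenase turns pyruvate into lactate, which leaves the cell through monocarboxylate transporters. The pentose phosphate pathway branches off after the first step and yields NADPH and ribose. HIF is a pair of an alpha subunit (HIF1A or EPAS1) and the constant partner ARNT. Prolyl hydroxylases (EGLN genes) mark the alpha subunit for destruction when oxygen is present, so the activity of HIF is set largely at the protein. Many glycolytic genes are HIF targets, among them those for lactate dehydrogenase A and phosphoglycerate kinase. A549 cells carry inactive KEAP1, which leaves the regulator NRF2 active, and NRF2 is known to drive several pentose phosphate genes.

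The columns summed to 16649863 reads (knockdown) and 20299441 reads (control). Levels are given in CPM, which scales reads to a common column total adjusted with TMM factors, and differences as log2 of knockdown CPM over control CPM. Ranges in parentheses are 95% intervals that cover counting error only. Wherever values come in pairs the knockdown value stands first. NUPR1 itself had 71 knockdown and 197 control reads, a log2 ratio of -1.21 (-1.63 to -0.81). The keratins of simple epithelium KRT8 and KRT18 stood at 8071 CPM or more in both columns, while KRT19 had 1.31 CPM beside 2.29 CPM. CDH1, the epithelial cadherin, had 71.3 CPM beside 43.04 CPM, a log2 ratio of 0.73 (0.60 to 0.86), and its part in the differences below was not tested. EPCAM was low (4.05 CPM beside 4.18 CPM), as were the alveolar type II markers SFTPA1, SFTPB and SFTPC at 3.16 CPM or less, while ABCA3 of the same list had 28.3 CPM beside 25.1 CPM and NKX2-1 had no row in the table. The 10 markers of leukocytes, fibroblasts, endothelium and red cells had at most 27 reads each. Of the endothelial ones PECAM1 had 0 knockdown and 2 control reads, VWF 10 and 6, and CDH5 18 and 3. The log2 ratio of CDH5 was 2.84 (1.07 to 5.25) and rests on those few reads.

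Differences in opposite directions stood out among the 48 genes. HIF1A had the lowest ratio, 2.33-fold lower in the knockdown column. SLC2A3, which encodes the glucose transporter GLUT3, had the highest ratio among genes with a mean of at least 5 CPM, 3.08-fold higher. The result of SLC2A3 was known when the set was chosen. In bulk RNA, fewer cells that express a gene and less of its RNA per cell cannot be told apart. The glycolytic enzymes lay close to equality, with all 15 that had a mean of at least 5 CPM within a log2 ratio of 0.5 in either direction. Of all genes at that level, 88.3% lay within the same limits.

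A difference was called when it was at least 1.5-fold and the mean of both columns was at least 5 CPM, a level that 42 of the 48 genes reached. By that rule 2 genes were higher in the knockdown column (SLC2A3 and NDRG1) and 3 were lower (HIF1A, EPAS1 and PFKFB4). These are 4.76% and 7.14% of the 42. The set was chosen with the result of SLC2A3, 1 of the 2 higher genes, known. Among all 10689 genes with that mean, 3.72% were higher and 4.44% lower by the same rule, so the shares in the set lay near the background. ADM and EPAS1 sat at the threshold. With scaling by column totals ADM entered (0.60) and EPAS1 left (-0.56), which gave 3 higher and 2 lower. At 2-fold 1 gene was higher and 1 lower, where 0.992% and 1.13% of all genes were. Over the 47 genes that passed the filter on low counts, 26 were higher and 21 lower by any amount, or 55.3% higher beside 50.0% of 14175 genes. Their median log2 ratio was 0.065, and that of all 14175 genes was 0.00036. HK2, 1 of the 26 higher genes, passed that filter through its knockdown count only (21 knockdown and 6 control reads).

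**Figure D1:**
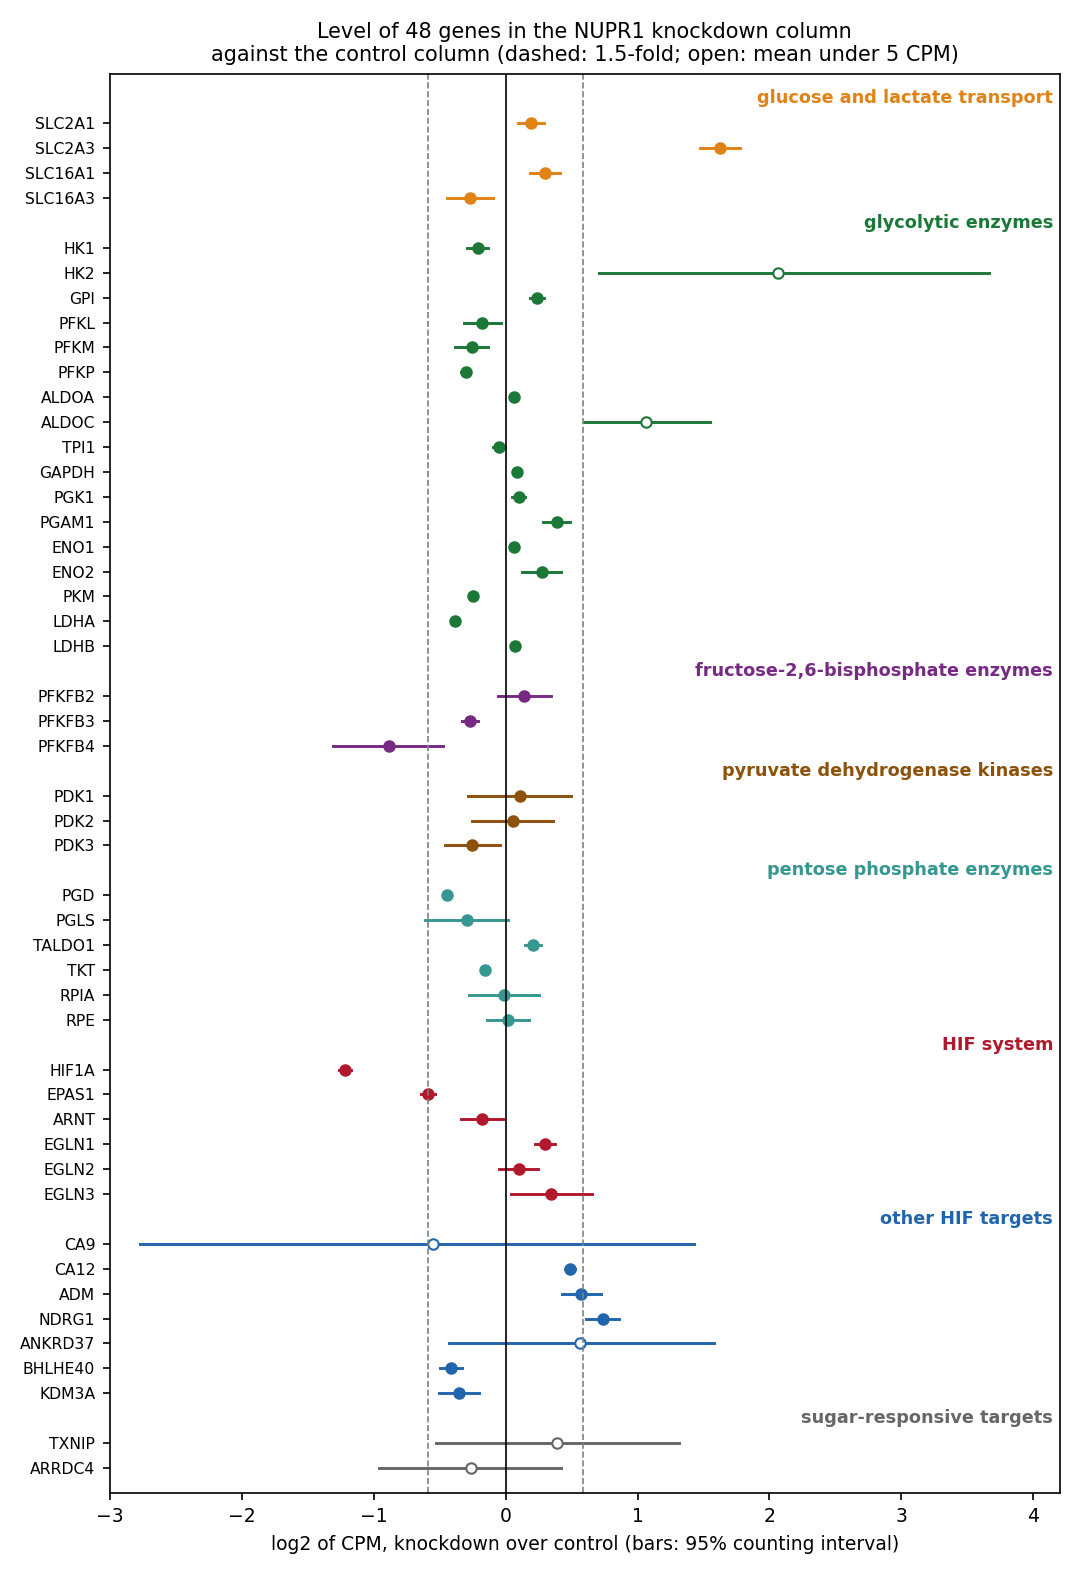
Log2 ratio of CPM, knockdown over control, for the 48 genes in 8 classes (x axis), with 95% counting intervals as bars and genes with a mean under 5 CPM as open points. HIF1A at -1.22 and SLC2A3 at 1.62 lie farthest from 0 among the filled points, while the filled points of the glycolytic enzymes lie between -0.38 and 0.39.

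Glucose enters through facilitative transporters, and the make-up of this step differed between the columns. SLC2A1, the widespread transporter GLUT1, counted 1590 knockdown and 1665 control reads, which is 94.7 CPM (90.1 to 99.4) beside 82.8 CPM (78.9 to 86.9). SLC2A3, a transporter of high affinity known best from neurons, counted 1294 knockdown and 503 control reads, which is 77.1 CPM (72.9 to 81.4) beside 25.03 CPM (22.9 to 27.3). Its log2 ratio was 1.62 (1.47 to 1.77), exceeded by 0.234% of the 10689 genes, while SLC2A1 differed by 0.19 (0.093 to 0.29). The set was chosen with the result of SLC2A3 known, so its rank is not independent of these data. Of the reads of both transporters SLC2A3 took 44.9% (43.04 to 46.7) in knockdown cells and 23.2% (21.4 to 25.04) in control cells (exact binomial intervals). Such a share does not depend on scaling between columns. SLC2A14, a near-identical paralog to which reads of SLC2A3 could be assigned, had 4 reads in each column.

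Lactate leaves through SLC16A1 (MCT1) and SLC16A3 (MCT4), and the pair differed in opposite directions by small amounts. SLC16A1 stood at 76.3 CPM beside 62.0 CPM, a difference of 0.30 (0.19 to 0.41) in log2. SLC16A3, the exporter of glycolytic cells and a HIF target, stood at 27.2 CPM beside 32.8 CPM, a difference of -0.27 (-0.45 to -0.097). SLC16A3 overlaps CSNK1D in the RefSeq annotation (2070 and 2741 reads). The strand setting of the counts is unknown here, so reads of overlapping genes could be mixed.

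The enzymes differed widely in level per length. On the scale of deposited RPKM, which divides reads by gene length and column total, GAPDH had 2149 beside 1983. LDHB was next in both columns with 1109 beside 1036. ENO1 had 707 beside 663, PKM 702 beside 817 and LDHA 545 beside 695, so that ENO1 led these 3 in knockdown cells and PKM in control cells. ALDOA had 307 beside 287, PFKP 126 beside 153 and PGK1 138 beside 127, while PGAM1 (49.4 beside 37.01), GPI (41.5 beside 34.5) and HK1 (27.4 beside 31.1) were lower. Processed pseudogenes make the levels of several of these genes uncertain. RefSeq lists 65 pseudogenes named after GAPDH, 13 after PGAM1 and 6 after LDHA, and how the authors treated reads that match several places is unknown here.

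**Figure D2:**
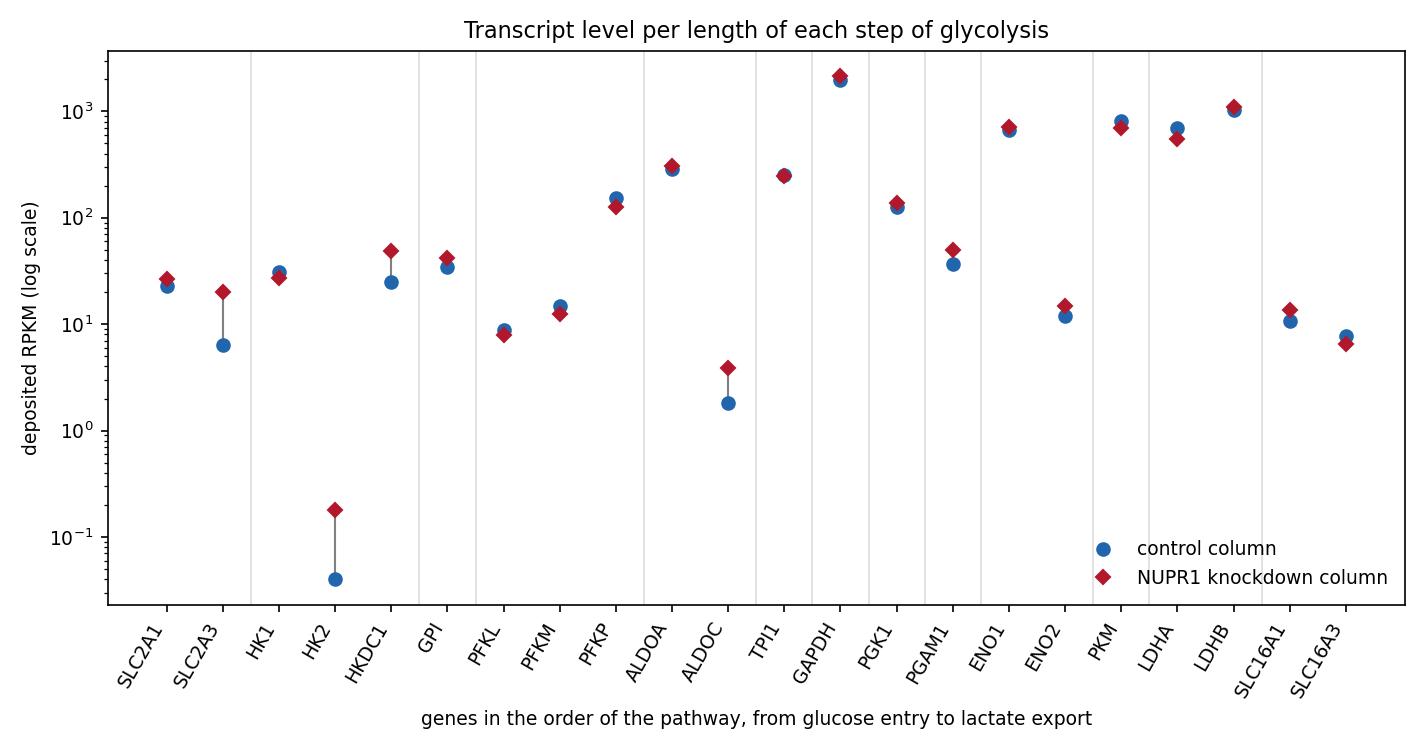
Deposited RPKM (y axis, log scale) of the genes of each step from glucose entry to lactate export, with circles for the control column and diamonds for the knockdown column. The pairs nearly coincide for ALDOA, TPI1, GAPDH, PGK1 and ENO1, while SLC2A3 (20.02 beside 6.37), HKDC1 (48.8 beside 24.9), HK2 and ALDOC are apart.

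The glycolytic enzymes as a class held an almost equal share of each column. Of all reads those of the 17 genes made up 1.47% (1.46 to 1.47) in knockdown cells and 1.49% (1.48 to 1.49) in control cells. All 17 passed the filter on low counts, 10 with a higher and 7 with a lower level, and the median log2 ratio was 0.067. HK2, 1 of the 10, passed through its knockdown count only (21 knockdown and 6 control reads). With a mean of at least 5 CPM 0 of 15 were called in either direction, and their log2 ratios ran from -0.38 to 0.39. Of all genes with that mean 3.72% were called higher and 4.44% lower, so 0 of 15 lies near the background.

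Hexokinases, which trap glucose as glucose 6-phosphate, were represented among the 48 mainly by HK1. It counted 2152 knockdown and 2983 control reads, which is 128 CPM (123 to 134) beside 148 CPM (143 to 154), and differed by -0.21 (-0.29 to -0.13) in log2. HK2, the inducible isoform of many tumors and a HIF target, was close to the detection limit, with 21 knockdown and 6 control reads. Its log2 ratio of 2.07 (0.71 to 3.66) rests on those few reads, and with 1 added to each RPKM it was 0.18. HKDC1, a hexokinase domain gene outside the 48, stood far above HK2 per length, with an RPKM of 48.8 beside 24.9 where HK2 had 0.180 beside 0.0400. HKDC1 counted 3068 knockdown and 1908 control reads, which is 183 CPM (176 to 189) beside 94.9 CPM (90.7 to 99.3), and differed by 0.94 (0.86 to 1.03) in log2. Of the summed RPKM of HK1, HK2 and HKDC1 it made up 63.9% in knockdown and 44.4% in control cells, so the leading gene of the step differed between the columns.

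GPI, the isomerase of the next step, counted 5570 knockdown and 5664 control reads, which is 332 CPM (323 to 340.5) beside 282 CPM (275 to 289), and differed by 0.23 (0.18 to 0.29). All isoforms of phosphofructokinase, which commits sugar to glycolysis, were slightly lower in the knockdown column. PFKP, the main isoform per length at 86.0% and 86.7% of the step, counted 10951 knockdown and 16166 control reads. Its level was 652 CPM (639.9 to 664) beside 804 CPM (792 to 817), a log2 difference of -0.30 (-0.34 to -0.27). PFKM differed by -0.26 (-0.38 to -0.13) and PFKL by -0.18 (-0.31 to -0.039). PFKM overlaps SENP1 (668 and 823 reads).

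From aldolase to enolase the leading genes were nearly level except PGAM1. ALDOA, the aldolase that leads in these cells, counted 17466 knockdown and 19959 control reads, which is 1040.0 CPM (1025 to 1056) beside 993 CPM (979 to 1007), and differed by 0.067 (0.037 to 0.096) in log2. ALDOC, the brain-type aldolase, counted 105 knockdown and 60 control reads and had a log2 ratio of 1.07 (0.60 to 1.55), but its mean of 4.62 CPM was under the minimum for a call. The triose enzymes were close to equality. TPI1, the isomerase of the triose phosphates, counted 7545 knockdown and 9354 control reads, which is 449 CPM (439 to 459.5) beside 465 CPM (456 to 475), and differed by -0.051 (-0.095 to -0.0071). GAPDH, the dehydrogenase often used as a reference gene, counted 56777 knockdown and 63999 control reads, which is 3381 CPM (3353 to 3409) beside 3184 CPM (3159.8 to 3209), and differed by 0.086 (0.070 to 0.10). PGK1, which makes the first ATP of the pathway, counted 6207 knockdown and 6930 control reads, which is 369.6 CPM (360.5 to 379) beside 345 CPM (337 to 353), and differed by 0.10 (0.050 to 0.15). PGAM1, the mutase that follows, had the highest ratio of the 15 enzymes with a mean of at least 5 CPM. It counted 1598 knockdown and 1463 control reads and stood at 95.2 CPM (90.5 to 99.9) beside 72.8 CPM (69.1 to 76.6), a log2 difference of 0.39 (0.28 to 0.49).

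Enolase was almost wholly ENO1 per length, at 98.0% and 98.2% of the step. ENO1 counted 42811 knockdown and 48983 control reads, which is 2549 CPM (2525 to 2573) beside 2437 CPM (2416 to 2459), and differed by 0.065 (0.046 to 0.084) in log2. ENO2, the neuron-type enolase, stood at 43.7 CPM beside 36.2 CPM, a difference of 0.27 (0.12 to 0.42). PKM, the pyruvate kinase gene that yields the splice forms M1 and M2, was lower in the knockdown column. It counted 38308 knockdown and 54466 control reads and stood at 2281 CPM (2258 to 2304) beside 2710.1 CPM (2687 to 2733), a log2 difference of -0.25 (-0.27 to -0.23). The splice forms cannot be told apart in counts per gene.

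Lactate dehydrogenase tilted from the A toward the B subunit in the knockdown column. LDHA, whose product favors the formation of lactate, counted 22814 knockdown and 35541 control reads, which is 1358 CPM (1341 to 1376) beside 1768 CPM (1750.1 to 1787). Its log2 ratio of -0.38 (-0.40 to -0.36) was the lowest of the 17 enzymes. LDHB, the subunit that leads in heart, counted 29109 knockdown and 33237 control reads, which is 1733 CPM (1713 to 1753) beside 1654 CPM (1636 to 1672), and differed by 0.068 (0.045 to 0.091). Of the reads of both genes LDHA took 43.9% (43.5 to 44.4) in knockdown cells and 51.7% (51.3 to 52.05) in control cells. Per length LDHB led in both columns, at 67.1% and 59.9% of the summed RPKM.

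**Figure D3:**
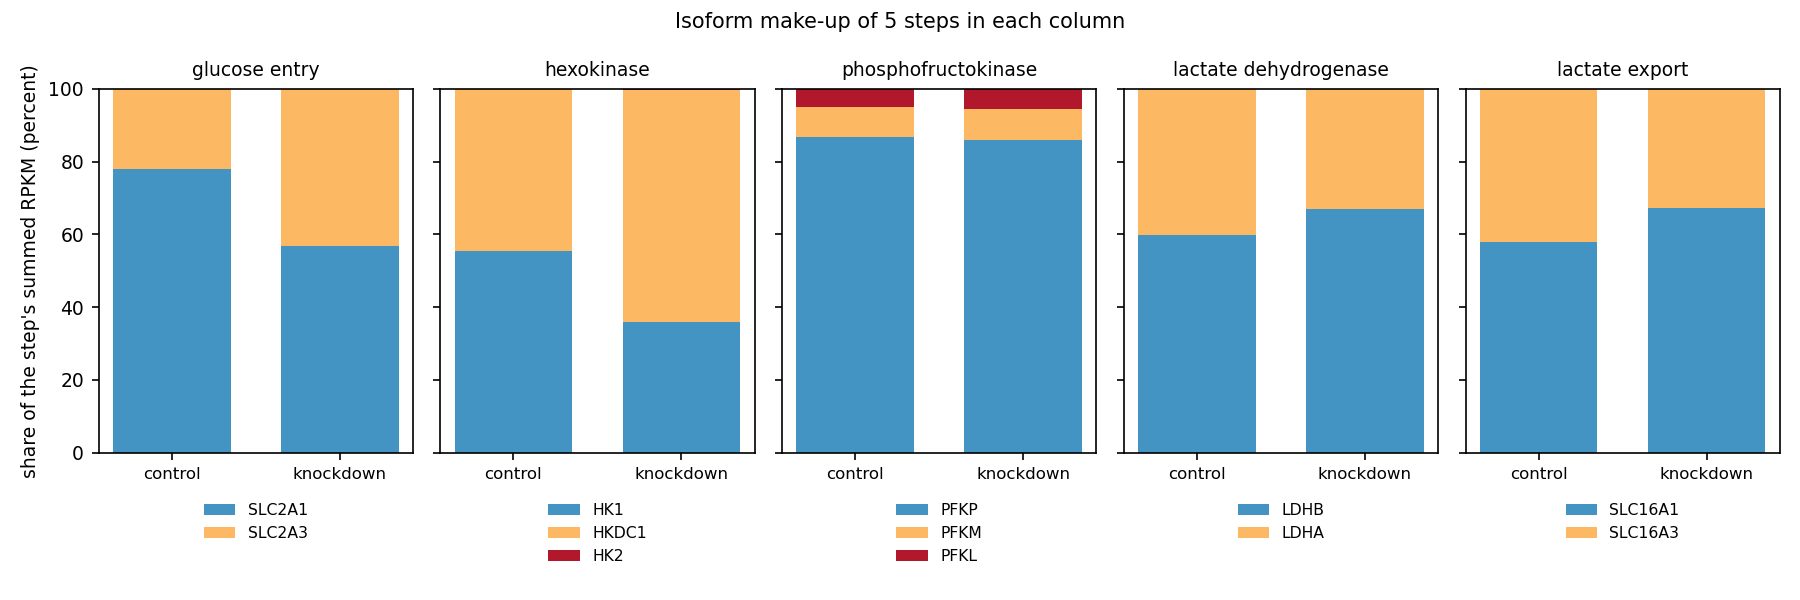
Share of each gene in the summed RPKM of its step (y axis, percent) in the control and the knockdown column, for 5 steps. From control to knockdown SLC2A3 goes from 21.97% to 43.1%, HKDC1 from 44.4% to 63.9% and LDHA from 40.1% to 32.9%, and the phosphofructokinases keep their order.

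The bifunctional PFKFB enzymes set the level of fructose 2,6-bisphosphate, the strongest activator of phosphofructokinase. PFKFB3, the form with the highest kinase activity, led per length (RPKM of 48.8 beside 57.6). It stood at 247 CPM (239 to 254) beside 297 CPM (289.9 to 305), a log2 difference of -0.27 (-0.33 to -0.21). PFKFB4, a HIF target, counted 72 knockdown and 159 control reads, which is 4.29 CPM (3.35 to 5.40) beside 7.91 CPM (6.73 to 9.24). With a log2 ratio of -0.88 (-1.31 to -0.47) it was 1.85-fold lower in knockdown cells. The call of PFKFB4 was lost where 1 was added to each RPKM (-0.51), and it has no value under a minimum of 5 CPM in each column. PFKFB4 overlaps UCN2, which counted 22 and 60 reads and had a log2 ratio of -1.19. PFKFB2 stood at 23.8 CPM beside 21.5 CPM, a difference of 0.14 (-0.059 to 0.34), and overlaps YOD1 (460 and 345 reads).

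Pyruvate dehydrogenase kinases keep pyruvate out of the mitochondrial dehydrogenase, and the 3 among the 48 genes were at 22.8 CPM or less. PDK1, the HIF target among them, stood at 6.43 CPM beside 5.97 CPM and PDK2 at 10.1 CPM beside 9.70 CPM, and both intervals of the log2 ratio held 0. PDK3 stood at 19.2 CPM beside 22.8 CPM, a difference of -0.25 (-0.46 to -0.044). PDK4, a further kinase of the family that lies outside the 48 and was singled out after its values were seen, was far more abundant per length, with an RPKM of 107 beside 145 where PDK3 had 1.49 beside 1.74. It counted 6775 knockdown and 11198 control reads, which is 403 CPM (394 to 413) beside 557 CPM (547 to 568), and was lower, at a log2 difference of -0.47 (-0.51 to -0.42), short of 1.5-fold.

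Pentose phosphate enzymes took a smaller share of the knockdown column, carried by the abundant PGD and TKT. Of all reads those of the 6 genes made up 0.281% (0.279 to 0.284) in knockdown cells and 0.330% (0.328 to 0.333) in control cells. PGD, a dehydrogenase that yields NADPH, counted 19744 knockdown and 32134 control reads, which is 1176 CPM (1159 to 1192) beside 1599 CPM (1581 to 1616). Its log2 ratio of -0.44 (-0.47 to -0.42) was the lowest of the class and did not reach 1.5-fold. TKT, a transketolase that returns carbon to glycolysis, counted 22100 knockdown and 29536 control reads and differed by -0.16 (-0.18 to -0.13). TALDO1, the transaldolase that works beside it, stood at 239 CPM beside 207 CPM, a difference of 0.21 (0.14 to 0.27) in the other direction. PGLS, RPIA and RPE had log2 ratios of -0.29, -0.013 and 0.018 with intervals that held 0. The median of the 6 log2 ratios was -0.086, and 0 of 6 were called, beside 3.72% of all genes higher and 4.44% lower.

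The alpha subunits of HIF had lower levels in the knockdown column. HIF1A, which encodes the alpha subunit of HIF-1, counted 5098 knockdown and 14193 control reads, which is 304 CPM (295 to 312) beside 706 CPM (695 to 718). It differed by -1.22 (-1.26 to -1.17) in log2, and 0.580% of the 10689 genes had a lower ratio. EPAS1, which encodes HIF-2 alpha, counted 4116 knockdown and 7404 control reads, which is 245 CPM (238 to 253) beside 368 CPM (360.1 to 377), and differed by -0.59 (-0.64 to -0.53). ARNT, the shared partner, counted 552 knockdown and 747 control reads, which is 32.9 CPM (30.2 to 35.7) beside 37.2 CPM (34.6 to 39.9), and differed by -0.18 (-0.34 to -0.017). Per length HIF1A was 10.3 times ARNT in knockdown cells and 21.2 times ARNT in control cells, a ratio that needs no scaling between columns. The antisense row HIF1A-AS2, which overlaps HIF1A, had 1 knockdown read and 12 control reads, and without strand such reads cannot be assigned. HIF protein was not measured.

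The prolyl hydroxylase genes went the other way by small amounts. By the rule above 0 of 3 were called, beside 3.72% of all genes higher and 4.44% lower. EGLN1, the main oxygen sensor of the family, counted 2996 knockdown and 2916 control reads, which is 178 CPM (172 to 185) beside 145 CPM (139.9 to 150.5), and differed by 0.30 (0.22 to 0.37). EGLN3, itself a HIF target, counted 185 knockdown and 174 control reads, which is 11.02 CPM (9.49 to 12.7) beside 8.66 CPM (7.42 to 10.04), and differed by 0.35 (0.041 to 0.65). EGLN2 counted 712 knockdown and 795 control reads, which is 42.4 CPM (39.3 to 45.6) beside 39.6 CPM (36.9 to 42.4), and its interval, 0.10 (-0.048 to 0.25), held 0.

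HIF targets outside glycolysis divided, with 4 higher and 2 lower among the 6 that passed the filter. NDRG1, a hypoxia-induced gene of differentiation and stress, counted 1266 knockdown and 909 control reads, which is 75.4 CPM (71.3 to 79.7) beside 45.2 CPM (42.3 to 48.3), and differed by 0.74 (0.61 to 0.86) in log2. ADM, which encodes the vessel-widening peptide adrenomedullin, counted 855 knockdown and 688 control reads, which is 50.9 CPM (47.6 to 54.4) beside 34.2 CPM (31.7 to 36.9), and differed by 0.57 (0.43 to 0.72). CA12, a carbonic anhydrase of the cell surface, counted 12097 knockdown and 10333 control reads, which is 720.3 CPM (708 to 733) beside 514 CPM (504 to 524), and differed by 0.49 (0.45 to 0.52). These 3 were the higher ones with many reads. BHLHE40, a transcriptional repressor linked to the clock, was lower with 2017 knockdown and 3215 control reads, which is 120.1 CPM (115 to 125) beside 160.0 CPM (154 to 166), and differed by -0.41 (-0.49 to -0.33). KDM3A, a histone H3 lysine demethylase, counted 593 knockdown and 905 control reads, which is 35.3 CPM (32.5 to 38.3) beside 45.03 CPM (42.1 to 48.1), and differed by -0.35 (-0.50 to -0.20). Neither of the lower genes reached 1.5-fold. ANKRD37, which encodes an ankyrin repeat protein, counted 21 knockdown and 17 control reads, a log2 ratio of 0.56 (-0.43 to 1.58), and overlaps UFSP2 (319 and 292 reads). CA9, the carbonic anhydrase used as a hypoxia marker, was barely detected, with 4 knockdown and 7 control reads, which is 0.238 CPM (0.0649 to 0.610) beside 0.348 CPM (0.140 to 0.718), and failed the filter.

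The median log2 ratio of the other HIF targets was 0.53 over the 6 genes that passed and 0.49 over all 7. It was 0.067 for the glycolytic enzymes and 0.00036 for all genes. The 6 include ANKRD37 (21 knockdown and 17 control reads), and the 7 also CA9 (4 and 7 reads). With a mean of at least 5 CPM the medians were 0.49 over 5 targets and 0.065 over 15 enzymes. The targets that passed ran from -0.41 to 0.74, and the 17 enzymes from -0.38 to 2.07, where HK2 and ALDOC at the upper end have few reads. Among genes with a mean of at least 5 CPM, the standard deviation of the log2 ratio across genes was 0.55 over 5 targets, 0.23 over 15 enzymes and 0.37 over all genes. No test of the difference between the classes was made, since genes of 2 columns are not replicates.

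**Figure D4:**
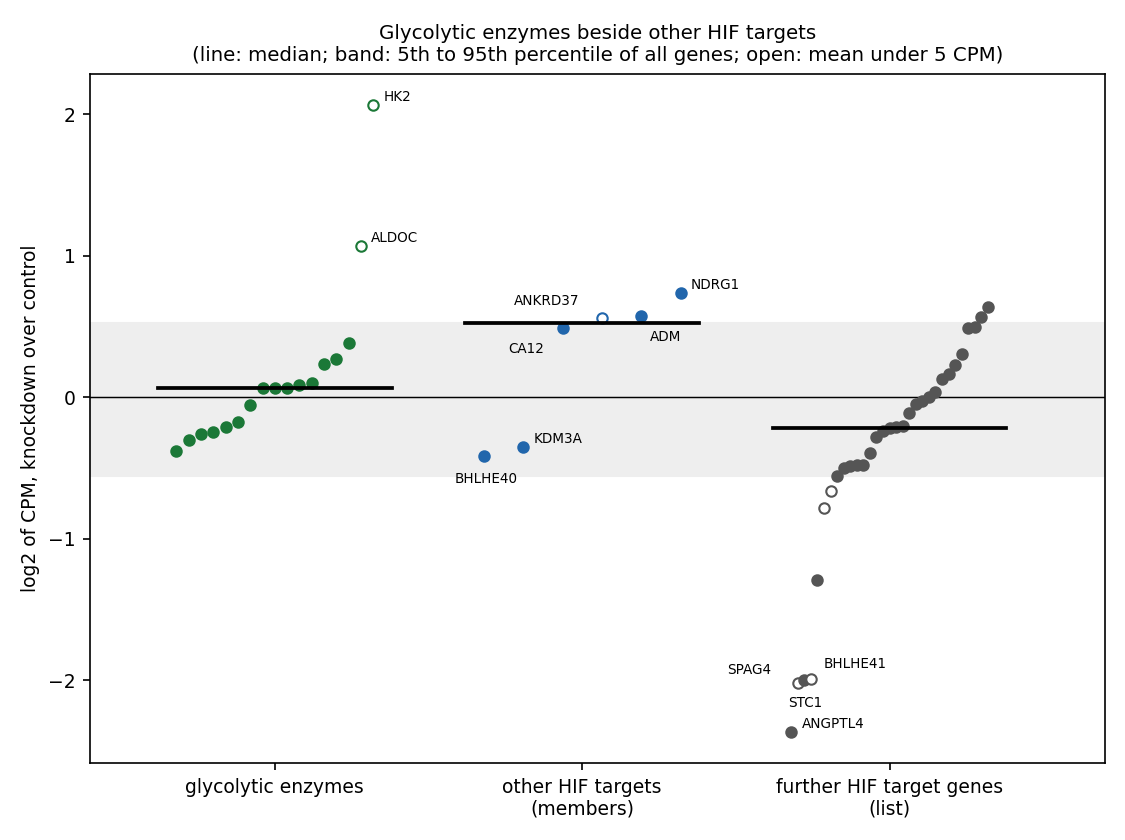
Log2 ratio of CPM, knockdown over control (y axis), for the glycolytic enzymes, the other HIF targets of the set and a list of further HIF target genes, each point 1 gene that passed the filter and the line the median. The medians are 0.067, 0.53 and -0.22, and the grey band spans the 5th to the 95th percentile of all genes with a mean of at least 5 CPM, -0.56 to 0.52.

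HIF binds a short core element in its target promoters, and the promoter sequences of 6 targets are shown because their levels went different ways. CA12 and ADM were higher in the knockdown column, BHLHE40, KDM3A and LDHA were lower, and PGK1 was near equality. Each window runs from 250 bases before to 50 bases after a RefSeq start, 5′ to 3′ on the strand of the gene, on GRCh38.p14. The submitters name hg19, so windows were matched by symbol only. Capitals mark the core element, ACGTG or GCGTG, on either strand (CACGT or CACGC where it lies on the other), and the palindrome CACGTG holds it on both. The CA12 window is chr15:63381797-63382096 (minus strand), that of ADM chr11:10304823-10305122 (plus strand) and that of BHLHE40 chr3:4979187-4979486 (plus strand). The KDM3A window is chr2:86441121-86441420 (plus strand), that of LDHA chr11:18394313-18394612 (plus strand) and that of PGK1 chrX:78103998-78104297 (plus strand). KDM3A and LDHA have 2 windows each, of which the first listed is shown.
CA12: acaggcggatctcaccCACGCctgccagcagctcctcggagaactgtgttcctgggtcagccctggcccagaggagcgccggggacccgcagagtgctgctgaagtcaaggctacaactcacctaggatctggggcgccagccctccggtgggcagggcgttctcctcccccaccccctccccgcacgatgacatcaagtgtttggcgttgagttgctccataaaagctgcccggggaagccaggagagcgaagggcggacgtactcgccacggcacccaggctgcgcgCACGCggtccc
ADM: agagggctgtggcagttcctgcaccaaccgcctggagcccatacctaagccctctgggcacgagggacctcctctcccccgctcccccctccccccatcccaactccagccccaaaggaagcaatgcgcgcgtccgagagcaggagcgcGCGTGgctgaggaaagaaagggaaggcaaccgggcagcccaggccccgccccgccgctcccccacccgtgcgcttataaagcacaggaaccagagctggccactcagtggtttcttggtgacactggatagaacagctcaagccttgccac
BHLHE40: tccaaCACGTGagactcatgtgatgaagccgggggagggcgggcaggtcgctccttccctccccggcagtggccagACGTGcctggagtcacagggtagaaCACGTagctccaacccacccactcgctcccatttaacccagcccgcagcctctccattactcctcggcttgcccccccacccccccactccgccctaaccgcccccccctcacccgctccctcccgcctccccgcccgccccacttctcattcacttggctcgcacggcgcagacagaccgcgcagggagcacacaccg
KDM3A: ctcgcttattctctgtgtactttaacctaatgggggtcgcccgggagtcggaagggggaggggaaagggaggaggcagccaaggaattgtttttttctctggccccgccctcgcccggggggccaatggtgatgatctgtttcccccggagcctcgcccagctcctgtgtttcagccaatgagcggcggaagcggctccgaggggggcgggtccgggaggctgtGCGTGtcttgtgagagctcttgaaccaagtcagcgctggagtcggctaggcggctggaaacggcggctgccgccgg
LDHA: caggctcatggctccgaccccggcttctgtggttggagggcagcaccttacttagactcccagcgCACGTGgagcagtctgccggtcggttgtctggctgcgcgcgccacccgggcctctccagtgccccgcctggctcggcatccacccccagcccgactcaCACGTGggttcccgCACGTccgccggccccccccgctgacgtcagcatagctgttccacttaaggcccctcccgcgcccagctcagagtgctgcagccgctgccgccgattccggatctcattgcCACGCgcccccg
PGK1: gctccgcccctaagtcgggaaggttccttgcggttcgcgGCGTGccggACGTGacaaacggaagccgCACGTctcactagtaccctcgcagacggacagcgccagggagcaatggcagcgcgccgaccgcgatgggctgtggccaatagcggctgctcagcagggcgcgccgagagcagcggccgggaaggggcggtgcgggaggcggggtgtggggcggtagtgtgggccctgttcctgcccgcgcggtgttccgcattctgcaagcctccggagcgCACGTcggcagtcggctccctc

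The windows of LDHA and PGK1 each held 4 separate runs of the core element, BHLHE40 3, CA12 2, and ADM and KDM3A 1 each. Both the higher and the lower targets thus held it. Of the 48 genes 44 were matched to 76 windows, and SLC2A3, SLC16A1, PFKFB2 and NDRG1 were not matched. The core element was found in 49 of the 76 windows (64.5%) and in 17012 of all 35116 windows (48.4%). It was found in 23 of 37 windows of glycolytic enzymes, in 7 of 7 windows of the other HIF targets and in 2 of 6 windows of pentose phosphate enzymes. Windows of 1 gene can overlap, and a match is a description of the letters and not a bound site.

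TXNIP and ARRDC4, arrestin-like genes that restrain glucose uptake and are induced by sugar through the regulator MondoA, were low in both columns. TXNIP counted 23 knockdown and 21 control reads, which is 1.37 CPM (0.868 to 2.06) beside 1.04 CPM (0.647 to 1.60), and differed by 0.39 (-0.53 to 1.32). ARRDC4 counted 32 knockdown and 46 control reads, which is 1.91 CPM (1.30 to 2.69) beside 2.29 CPM (1.68 to 3.05), and differed by -0.26 (-0.96 to 0.42). Both intervals held 0, so no difference was detectable at this depth. Of 9 further genes listed around the MondoA and ChREBP system 4 were higher and 5 lower, with a median log2 ratio of -0.034. Of the 8 with a mean of at least 5 CPM 0 were called, beside 3.72% of all genes higher and 4.44% lower. The median of those 8 was 0.020. The 4 higher ones include the thioredoxin gene TXN (0.55) and the thioredoxin reductase gene TXNRD1 (0.46).

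The neighbouring pathways, that system included, were described with 6 further lists of 123 genes, of which 116 had a row. Of 21 other genes of glycolysis and gluconeogenesis with a mean of at least 5 CPM, 3 were at least 1.5-fold higher (14.3%, beside 3.72% of all genes) and 2 lower (9.52%, beside 4.44%). The median over the 25 that passed the filter was 0.018. The higher ones were HKDC1 (given above), MPC1 and PDP2. MPC1, a subunit of the mitochondrial pyruvate carrier, stood at 7.98 CPM beside 4.98 CPM, a difference of 0.68 (0.30 to 1.07). Its control level was under 5 CPM, so it met the minimum mean through its knockdown level. PDP2, a phosphatase that activates pyruvate dehydrogenase, stood at 11.1 CPM beside 7.21 CPM, a difference of 0.62 (0.30 to 0.94). PCK2, the mitochondrial phosphoenolpyruvate carboxykinase, was lower with 31.02 CPM beside 48.96 CPM, a difference of -0.66 (-0.81 to -0.50). SLC2A6, a member of the glucose transporter family, was lower with 6.55 CPM beside 9.90 CPM, a difference of -0.60 (-0.95 to -0.25). The intervals of MPC1, PDP2, PCK2 and SLC2A6 all reach inside 1.5-fold (0.585 in log2).

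Of 17 genes of glycogen and hexosamine metabolism 1 was called in each direction, or 5.88% beside 3.72% of all genes higher and 4.44% lower, which is near the background. GFPT1, the entry enzyme of the hexosamine pathway, was higher with 147 CPM (142 to 153) beside 94.1 CPM (89.9 to 98.4), a difference of 0.65 (0.56 to 0.74). GYG2, a glycogenin that primes glycogen, was lower with 9.17 CPM (7.78 to 10.7) beside 18.8 CPM (16.96 to 20.8), a difference of -1.04 (-1.32 to -0.76). The median of that list was 0.052, and 9 of 17 were higher. Of 9 further pentose phosphate and ribose genes 0 were called (beside 3.72% of all genes higher and 4.44% lower), with a median of 0.0088.

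Further HIF targets were mostly lower. Of 31 that passed the filter 21 were lower and 10 higher (32.3%, beside 50.0% of all genes), with a median log2 ratio of -0.22. With a mean of at least 5 CPM 3 of 27 were at least 1.5-fold lower (11.1%, beside 4.44% of all genes). By the same rule 1 was higher (3.70%, beside 3.72% of all genes). The list was chosen with the result of ANGPTL4 known, so its shares are not independent of these data. ANGPTL4, an inhibitor of lipoprotein lipase, counted 100 knockdown and 616 control reads, a log2 ratio of -2.36 (-2.68 to -2.06). STC1, the secreted glycoprotein stanniocalcin, counted 253 knockdown and 1208 control reads, which is 15.1 CPM (13.3 to 17.04) beside 60.1 CPM (56.8 to 63.6), and differed by -1.996 (-2.20 to -1.80). WSB1, a substrate receptor of a ubiquitin ligase, was the higher one, with 134 CPM beside 85.8 CPM and a difference of 0.64 (0.55 to 0.73).

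The list of further regulators around HIF also holds the subunit genes HIF3A and ARNT2. HIF3A had 1 read in each column, and ARNT2 differed by -0.11 (-0.31 to 0.091). Over the 11 that passed the filter the median log2 ratio was 0.019. Among them 1 was called higher (9.09%, beside 3.72% of all genes) and 0 lower (beside 4.44%). SIAH1 differed by 0.44 (0.20 to 0.69), short of 1.5-fold. The called gene was CITED2, which competes with HIF alpha for the coactivators p300 and CBP. CITED2 counted 189 knockdown and 124 control reads, which is 11.3 CPM (9.71 to 12.98) beside 6.17 CPM (5.13 to 7.36), and differed by 0.87 (0.53 to 1.21). The lowest log2 ratio of the list was -0.11.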

How the data were processed

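RNA-sequencing of 4 libraries in 2 groups was deposited as 2 tables with 1 column per group, and 0 further value columns were found. Read counts are the authors' deposited whole numbers. RPKM values are the authors' as well and equal count over length times a fixed factor in each column within 1%. The submitters' processing notes name TopHat2 2.0.10, edgeR 3.2.2 and hg19, without role. The read counter, annotation, strand setting and way of joining single-end with paired-end libraries are not given in those sources, so mates of a pair may have been counted separately and intervals may be too narrow. No label says that libraries came from separate cultures. The name of the knockdown column differs by 1 letter from its library titles and was matched by its start.

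Of 19402 rows 26 symbols turned into dates were restored, and 3 rows with a broken name or length were left out (0.0873% and 0.0509% of reads). Filtering (filterByExpr, minimum count 10, minimum total 15) left 14175 genes, and TMM factors were 1.01 and 0.991 (R 4.3.3, edgeR 4.0.16). Ratios have exact conditional intervals and levels Poisson intervals at 95% (scipy 1.17.1), without a pseudocount. A single read is 0.0595 CPM or 0.0498 CPM, and a count of 0 would allow up to 3 reads, 0.179 CPM or 0.149 CPM. Reads carry no molecular identifiers, so intervals cover counting error only. With 0 residual degrees of freedom no test was made. The procedure was tested on simulated data with counting error only, so that test does not cover variation between cultures or libraries.

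Members and lists were chosen with earlier results of these data known, those of SLC2A3 and ANGPTL4 among them. Named were all 48 members, list genes at least 1.5-fold apart with a mean of at least 5 CPM, NUPR1 and cell type markers; 1 list gene that the rule names is not reported here. Alternatives were other scalings (column totals, upper quartile, DESeq2 1.42.0 size factors), filters, RPKM with pseudocounts of 1 and 0.1, a length trend removed in 20 bins, and a 2-fold threshold.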

Additional observations from a re-analysis of the deposited data

How the results depend on the processing

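The values rest on 2 columns, so differences between cultures, libraries or layouts cannot be told apart from the knockdown. No paired analysis was possible because each group has a single column, and leaving out each library was not run for the same reason. HIF1A and SLC2A3 kept their direction and their call in every alternative run, with log2 ratios from -1.23 to -1.18 and from 1.51 to 1.65. NDRG1 lost its call at 2-fold only.

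The number of genes of the set at least 1.5-fold higher was 4 in place of 2 with no filter on low counts, since HK2 and ALDOC then counted, and 1 at 2-fold. The number at least 1.5-fold lower was 1 in place of 3 with RPKM plus 1 (EPAS1 at -0.55, PFKFB4 at -0.51) and 1 at 2-fold. EPAS1 was also under 1.5-fold with column totals (-0.56), RPKM plus 0.1 (-0.56) and the length trend removed (-0.58). ADM passed 1.5-fold with column totals and with RPKM plus 0.1 (0.60 in both). The median log2 ratio of the glycolytic enzymes was 0.094 with column totals and 0.096 with RPKM plus 1 and with RPKM plus 0.1, in place of 0.067. That of the other HIF targets was 0.38 with RPKM plus 1, in place of 0.53. It was 0.49 with no filter or with at least 5 CPM in both columns, and 0.51 to 0.55 in the other alternatives. Over all genes, no filter gave 1917 higher and 2093 lower in place of 398 and 475, RPKM plus 1 gave 276 and 228, and 2-fold gave 106 and 121. RPIA, close to 0, was the only gene of the set whose sign changed under any alternative.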
